A study of Mus musculus with 23 samples.

Results

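Regions bound by NR5A2 near 49 genes of cell junctions and embryo compaction are described here, with their chromatin accessibility in 8-cell mouse embryos that had lost Nr5a2 and in their controls. A region belonged to a gene when that gene's RefSeq span was the nearest protein-coding span and lay within 50 kb of the region's midpoint. By this rule 68 of the table's 16958 regions were members, and they belonged to 33 of the 49 genes. The remaining 16 genes had no member region: Ctnnb1, Cldn1, Cldn6, Cldn23, Jam3, Ezr, Krt7, Krt8, Krt18, Dsg2, Dsc3, Pkp1, Pkp2, Pkp3, Jup and Gjc1. Among them are β-catenin, which couples cadherins to the actin skeleton, ezrin, which links the cell membrane to cortical actin, and the keratin pair Krt8 and Krt18. Of the 33 genes with a region, 17 had 1 region each and 16 had 2 or more, up to 8 at Tjp1.

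Compaction is the step at which the blastomeres of the 8-cell mouse embryo flatten against each other. E-cadherin, encoded by Cdh1, holds the cells together at adherens junctions, where catenins tie it to actin, and non-muscle myosin tightens the cortex. Gap junctions form around the same stage, tight junctions mature as the morula develops, and desmosomes appear with the epithelium of the blastocyst. NR5A2 is an orphan nuclear receptor, a transcription factor that binds DNA and is present in the early embryo.

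The readout was ATAC-seq: a transposase cuts open DNA and leaves sequencing adapters there. In the mz series, 13 mz_NrKO libraries (embryos without maternal and zygotic Nr5a2) and 8 mz_NrHet libraries (labelled heterozygous) came from embryos taken directly at the 8-cell stage. In the inducible series, embryos were collected as early 2-cell embryos at 30 h after hCG, the hormone given to induce ovulation, and reached the 8-cell stage in 45 h of culture. The treated pool (1 library, iNrKO_plus_Tam_NrKO) had 750 nM 4-hydroxytamoxifen during the first 24 h, and the untreated pool (1 library, iNrKO_minus_Tam_Nrpp) had none. The pools thus differ in drug exposure as well as in the deletion, and these cannot be told apart here. The Cre driver, the number of embryos per pool, the meaning of the suffix Nrpp and whether mz_NrHet embryos lacked maternal Nr5a2 are not given in the sources used here. The deposited table holds 1 merged value per group and region, in RPKM, a read count scaled to library depth, which in this table carries no division by region length.

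One read was worth 0.359 RPKM in mz_NrKO, 0.587 in mz_NrHet, 0.170 in the treated pool and 0.163 in the untreated pool. The member regions held 558 reads in mz_NrKO, 567 in mz_NrHet, 887 in the treated pool and 1316 in the untreated pool, and the median member region held 4, 5.5, 9 and 15 reads in that order. A count of 0 allowed up to 3 reads, or 1.08 RPKM in mz_NrKO, 1.76 in mz_NrHet, 0.510 in the treated pool and 0.490 in the untreated pool. A two-sided exact binomial test set the reads of the merged libraries against each other, with Benjamini-Hochberg adjustment over all 16958 regions, and a region is called lower or higher where the adjusted p is under 0.05. Such a call compares 2 merged libraries and not the conditions, since the spread between embryos is not in the table. In whole embryos, fewer cells with an open region and less opening per cell cannot be told apart. Values below 1 were usual for the whole table: the median log2 ratio, computed here and below from RPKM + 1, was −0.32 in the mz series and −0.35 in the inducible series.

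Of the 68 junction regions, 35 (51.5%) lay inside the span of their gene, against 50.9% of all regions, 15 lay upstream, 13 downstream, and 5 outside a gene whose strand is not listed. For the 52 regions whose own gene has a listed start, the closest start was 2.15 kb away and the median distance was 23.1 kb. Regions within 5 kb of their gene's start numbered 5, and 0 lay within 1 kb. On the chromosomes with listed starts, the nearest start of any gene lay a median of 15.4 kb away for both the 65 members and the 16509 regions there. It lay within 1 kb for 2 members, both at Gja1, and for 5.20% of those regions, and within 5 kb for 7 members (10.8%) and 21.7% of those regions. RefSeq promoter windows (250 bases before to 50 after a start) were overlapped by 0 of these 65 members, against 2.91% of those regions. The NR5A2 motif TCAAGGNCA, searched on both strands, had 0 matches in the 40 promoter windows listed for 31 of the 49 genes, against 532 of 32851 windows (1.62%), which says only that these letters are not in those windows.

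NR5A2 binding at the junction regions was close to that of the whole table. The median CUT&RUN signal, a measure of bound NR5A2, was 4.44 RPKM at the members and 4.15 RPKM at all regions. The strongest member was a region inside Cgnl1 with 17.3 RPKM, at percentile 99.4 of the table. The authors' deposited table places the binding summit on an NR5A2 motif by a shift at 64 of the 68 members (94.1%) and at 89.3% of all regions. It classes 38 of the 68 members (55.9%) as accessible, against 48.5% of all regions. The outermost member was a Gja1 region 40.6 kb from the gene, with 2.15 RPKM in mz_NrKO and 2.35 in mz_NrHet, and 1.02 RPKM in the treated and 1.63 in the untreated pool. The nearest region beyond the limit lay 50.2 kb from Gjb5, with 3.59 RPKM in mz_NrKO and 4.70 in mz_NrHet, and 4.76 RPKM in the treated and 4.57 in the untreated pool.

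Across the 68 junction regions, mean accessibility was 2.94 RPKM in mz_NrKO and 4.90 RPKM in mz_NrHet, a ratio of sums of 0.601 (exact 95% interval of counting error 0.534 to 0.677). The ratio over all regions was 0.668 (0.663 to 0.674), inside the interval of the members. The knockout value was below the heterozygous one at 50 of 68 members (73.5%), against 64.3% of all regions, and the median log2 ratio of the members was −0.61. By the exact binomial test, 0 of the 68 regions were called lower and 0 higher, where 1.73% of all regions were called lower and 0.0236% higher. At an unadjusted p under 0.05 in that test, 14 of the 68 were lower (20.6%) and 0 higher, against 11.9% lower among all regions. The smallest adjusted p among them was 0.101. Such a share also depends on read depth. At least 10 reads in both mz columns together were held by 36 of the 68 members and by 7445 of the 16958 regions.

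In the inducible series the members averaged 2.22 RPKM in the treated pool and 3.16 RPKM in the untreated pool, a ratio of 0.703 (0.645 to 0.766), against 0.694 (0.690 to 0.698) over all regions. The treated value was below the untreated one at 53 of 68 members (77.9%), against 74.4% of all regions, and the median log2 ratio of the members was −0.33. Of the 68 regions, 6 (8.82%) were called lower and 0 higher, where 6.37% of all regions were called lower and 0.0767% higher. At an unadjusted p under 0.05 in the same exact test, 14 of the 68 were lower (20.6%), against 19.7% of all regions. The 6 called regions lie at Cldn4, Nectin1, Cdh1, Cgnl1, Cldn7 and Afdn, 3 adherens and 3 tight junction genes. Their share was near that of the table, and the call held for 2 of them when the table's median ratio was set to 1 (1.17% of all regions) and for 1 of them when the column sums were made equal (0.46% of all regions).

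**Figure D1:**
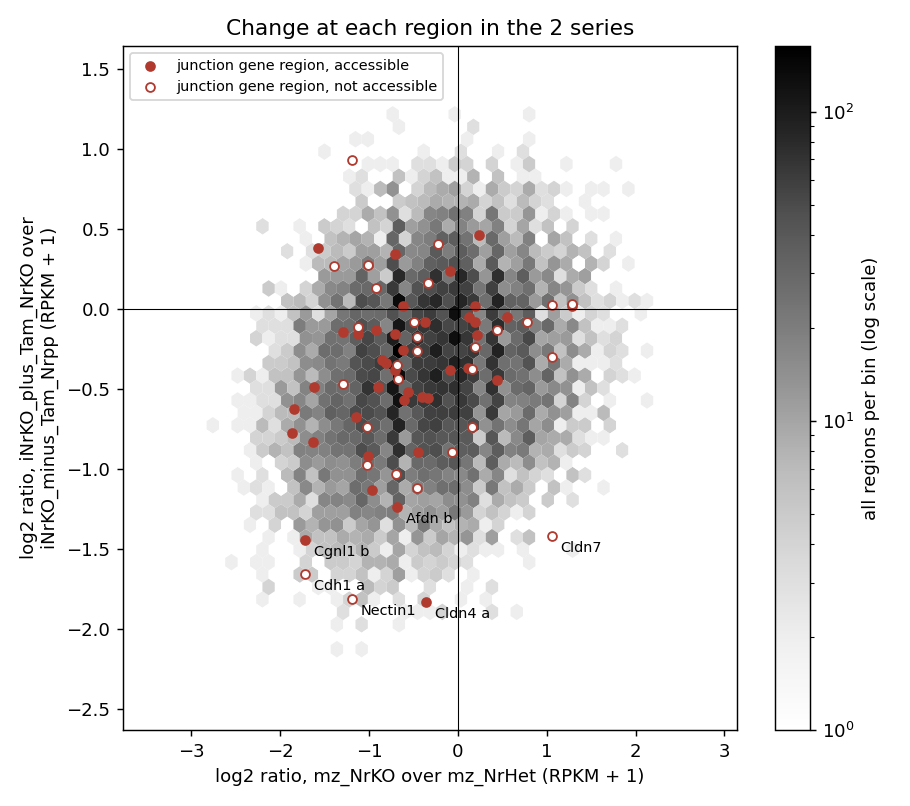
Change of each region in mz_NrKO over mz_NrHet (horizontal) and in the treated over the untreated pool (vertical), both as log2 ratios of RPKM + 1; grey shading counts all 16958 regions and points are the 68 junction regions, filled where accessible. The 6 regions called lower in the treated pool are named, with letters counting a gene's regions along the chromosome, and most members lie left of and below 0, within the cloud of all regions.

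Both series had a lower value in the knockout or treated column than in its control at 40 of the 68 members (58.8%), against 50.5% of all regions. A further 10 were lower in the mz series alone, 13 in the inducible series alone and 5 in neither. Across the 68 regions the log2 ratios of the series had a Spearman correlation of 0.27, against 0.21 across all regions, as a description of regions that share their libraries. The test of the difference between the series (exact, on the noncentral hypergeometric distribution) called 0 members and 0.0177% of all regions, and the smallest adjusted p of a member was 0.991.

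To gather reads for genes with several weak regions, the reads of all regions of a gene were also summed, and the same exact binomial test was run over the 8051 gene loci of the table. In the mz series 3 of the 33 junction loci were called lower and 0 higher, where 5.51% of all loci were called lower and 0.0621% higher. They were Epcam, Myh10 and F11r. In the inducible series 7 of 33 were called lower and 0 higher, where 15.4% of all loci were called lower and 0.112% higher. These were Cldn4, Nectin1, Tjp1, Myh10, Cgnl1, Afdn and Cldn7, so that Myh10 was called in both series, 1 of 33 (3.03%) against 2.37% of all loci. The median junction locus held 24 reads in both mz columns together and 36 in both inducible columns, against 15 and 39 for all loci. Between the series 0 junction loci and 0.0497% of all loci differed by the test of the difference.

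**Figure D2:**
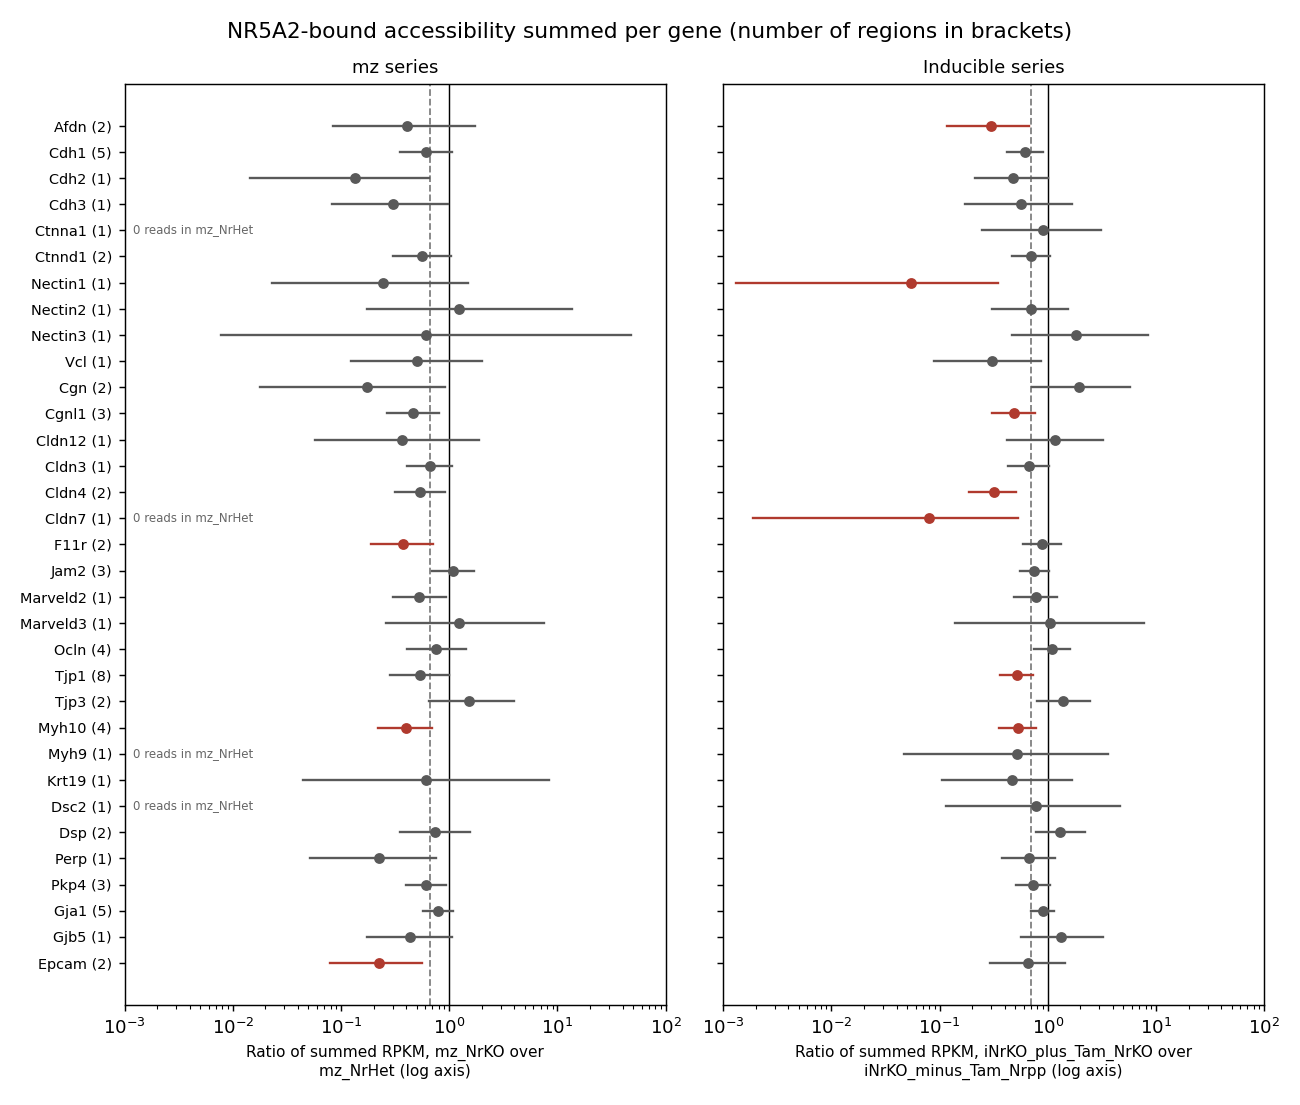
Ratio of RPKM summed over the regions of each of the 33 junction genes, mz_NrKO over mz_NrHet at left and treated over untreated pool at right (log axes), with exact 95% intervals of counting error; genes run by family from adherens junctions at the top to Epcam. Red marks loci called lower (3 at left, 7 at right), the solid line is a ratio of 1, and the dashed line is the ratio over all regions, 0.668 at left and 0.694 at right.

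The adherens junction genes had 16 regions at 10 of their 11 genes. Their summed accessibility in mz_NrKO was 0.504 of that in mz_NrHet (0.367 to 0.691), and in the treated pool 0.563 of that in the untreated pool (0.458 to 0.691). Over all regions these ratios were 0.668 and 0.694. The treated value was below the untreated one at 15 of the 16 regions, against 74.4% of all regions, and 3 were called lower, against 6.37% of all regions. These 3, at Cdh1, Nectin1 and Afdn, held 3, 1 and 6 reads in the treated pool and 23, 19 and 23 in the untreated pool. All 16 regions together held 147 and 272 reads in that order, so the 3 called regions weigh on the inducible ratio. The difference of the family from the whole table was not tested. The log2 ratios of the series had a Spearman correlation of 0.79 across these 16 regions and 0.21 across the 31 tight junction regions, as a description without a test.

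Cdh1 encodes E-cadherin, the adhesion molecule of compaction, and had 5 regions, all inside the gene. The region of lowest coordinate, at chr8:106609250-106609714 (mm10) and classed as not accessible, had 1.43 RPKM in mz_NrKO, against 7.05 RPKM in mz_NrHet. In the inducible series it had 0.510 RPKM in the treated pool, against 3.75 RPKM in the untreated pool. Both knockout values were the lowest or equal lowest of the 5 Cdh1 regions in their column. The treated pool held 3 reads against 23, a ratio of 0.136 (0.0261 to 0.450) with an adjusted p of 0.00611 by the exact binomial test, while the mz ratio of 0.204 missed the threshold at an adjusted p of 0.101.

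The most accessible Cdh1 region, at chr8:106647672-106648241 had 3.59 RPKM in mz_NrKO and 2.94 in mz_NrHet, and 4.42 RPKM in the treated and 5.06 in the untreated pool. Its values therefore lay close together in each series, unlike those of the first region. Over the 5 regions Cdh1 summed to 10.0 RPKM in mz_NrKO and 16.4 in mz_NrHet, and to 8.00 RPKM in the treated and 12.9 in the untreated pool. The ratios were 0.611 (0.348 to 1.07) in the mz embryos and 0.620 (0.423 to 0.901) in the inducible pools, the second with an adjusted p of 0.0582 by the exact binomial test over loci. The region of Cdh3, the P-cadherin gene next to Cdh1, had 1.79 RPKM in mz_NrKO and 5.87 in mz_NrHet, and 1.02 RPKM in the treated and 1.80 in the untreated pool.

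Cdh2, the N-cadherin gene, had a single region inside the gene with 0.717 RPKM in mz_NrKO, against 5.29 RPKM in mz_NrHet, and 1.87 RPKM in the treated, against 3.92 RPKM in the untreated pool. Its mz log2 ratio of −1.87 was the lowest of the 68 members, from 2 reads against 9, and the adjusted p was above 0.05 in both series. The nectins are immunoglobulin-like adhesion molecules that work beside cadherins, and afadin, encoded by Afdn, binds them to actin. The region inside Nectin1, at chr9:43748557-43748788, had 0.170 RPKM in the treated pool and 3.10 RPKM in the untreated pool, which is 1 read against 19. The ratio was 0.0549 (0.00132 to 0.345) with an adjusted p of 0.00375 by the exact binomial test, and the mz values were 0.717 RPKM in mz_NrKO and 2.94 RPKM in mz_NrHet. The accessible region inside Afdn, at chr17:13828540-13828854, had 1.02 RPKM in the treated and 3.75 in the untreated pool, and 1.08 RPKM in mz_NrKO and 2.35 in mz_NrHet. Its inducible ratio was 0.272, with an adjusted p of 0.0424 by the exact binomial test.

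The regions of the other nectin genes were not called. Nectin2 had 2.04 RPKM in the treated and 2.94 in the untreated pool, and Nectin3 had 1.19 RPKM in the treated and 0.653 in the untreated pool. Among the catenins, which bind the cadherin tail, Ctnnd1 (p120-catenin) had 2 accessible regions with a summed 8.25 RPKM in mz_NrKO and 14.7 in mz_NrHet, and 7.49 RPKM in the treated and 10.6 in the untreated pool. The ratios were 0.562 (0.305 to 1.03) and 0.706 (0.470 to 1.05), and neither locus test passed. The region of Ctnna1 (α-catenin) had 2 reads in mz_NrKO and 0 in mz_NrHet, too few for a ratio, and 1.02 RPKM in the treated against 1.14 in the untreated pool. Vinculin's gene Vcl, whose product joins catenins to actin under tension, had a region with 0.851 RPKM in the treated and 2.77 in the untreated pool, a ratio of 0.307 (0.0885 to 0.866) that was not called.

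The tight junction genes had 31 regions at 13 of their 17 genes. Their summed accessibility in mz_NrKO was 0.645 of that in mz_NrHet (0.543 to 0.767), and in the treated pool 0.704 of that in the untreated pool (0.621 to 0.798). Both are near the ratios of the whole table. The 3 regions called lower in the treated pool belong to claudins, the sealing proteins of tight junctions, and to Cgnl1, which encodes paracingulin, a cytoplasmic protein of the junction.

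Cldn4 had the region with the lowest adjusted p among the members. This region at chr5:134944196-134944476, 0.787 kb downstream of the gene, had 1.53 RPKM in the treated pool and 8.00 RPKM in the untreated pool, from 9 and 49 reads. The ratio was 0.191 (0.0827 to 0.394) with an adjusted p of 0.000143 by the exact binomial test, and this was the call that also held with equal column sums, at an adjusted p of 0.0265. In the mz series the same region had 5.74 RPKM in mz_NrKO and 7.64 in mz_NrHet, values that lie much closer together, and the test of the difference between the series gave an unadjusted exact p of 0.0132 and did not pass adjustment. The second Cldn4 region, 3.02 kb upstream, had 5.02 RPKM in mz_NrKO and 12.3 in mz_NrHet, and 2.38 RPKM in the treated and 4.41 in the untreated pool. Summed over both regions, Cldn4 had 3.91 RPKM in the treated and 12.4 in the untreated pool, a ratio of 0.316 (0.189 to 0.509) with an adjusted p of 2.98e-05 by the exact binomial test over loci.

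Cldn3, the neighbour of Cldn4, had the highest heterozygous value of the members, with 14.0 RPKM in mz_NrKO and 21.1 in mz_NrHet, and 6.30 RPKM in the treated and 9.47 in the untreated pool. Its ratios of 0.661 (0.410 to 1.07) and 0.665 (0.428 to 1.02) were close to each other and neither was called. The Cldn7 region, 8.12 kb upstream of the gene, had 0.170 RPKM in the treated and 2.12 in the untreated pool, which is 1 read against 13, a ratio of 0.0802 (0.00189 to 0.534) and an adjusted p of 0.0360 by the exact binomial test. In the mz series it held 3 reads in mz_NrKO and 0 in mz_NrHet, both within the limit that a count of 0 allows. Cldn12 had 1.08 RPKM in mz_NrKO and 2.94 in mz_NrHet, and 1.70 RPKM in the treated and 1.47 in the untreated pool.

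**Figure D3:**
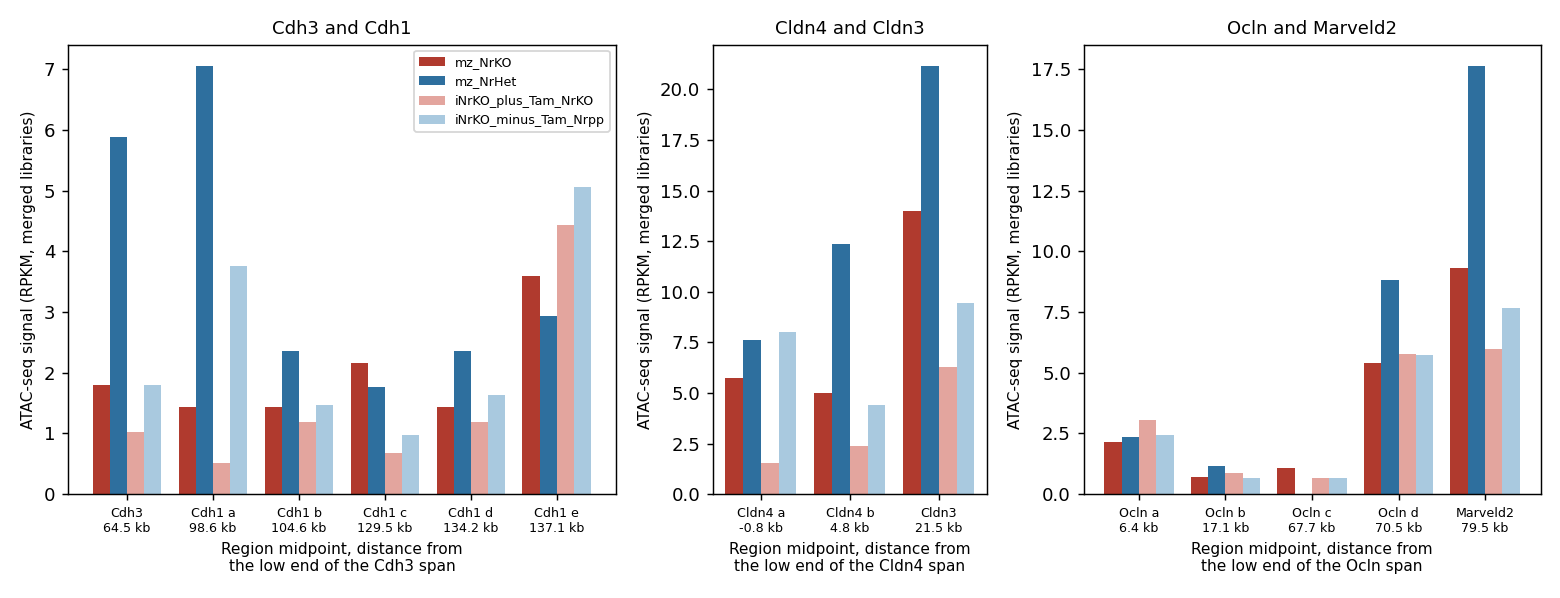
ATAC-seq signal in RPKM, merged per group, at the regions of 3 pairs of neighbouring junction genes, evenly spaced along the axis with the distance of each midpoint from the low end of the first gene's span; letters count a gene's regions along the chromosome. The first Cdh1 region and the first Cldn4 region have 0.510 and 1.53 RPKM in the treated pool, against 3.75 and 8.00 RPKM in the untreated pool, while the Ocln regions have similar bars in the treated and untreated pools.

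Cgnl1 had 3 accessible regions. The region inside the gene at chr9:71669954-71670114, the one with the strongest NR5A2 signal of the 68, had 1.43 RPKM in mz_NrKO and 7.05 in mz_NrHet, and 0.510 RPKM in the treated and 3.10 in the untreated pool. The inducible ratio of 0.165 was called, with an adjusted p of 0.0238, and the mz ratio of 0.204 was not, with an adjusted p of 0.101, both by the exact binomial test. The region 11.2 kb downstream had 1.08 RPKM in mz_NrKO and 6.46 in mz_NrHet, and 1.87 RPKM in the treated and 3.43 in the untreated pool. The third region, also inside the gene, had 6.46 RPKM in mz_NrKO and 5.87 in mz_NrHet, and 2.55 RPKM in the treated and 3.59 in the untreated pool, so that in the mz series it stood apart from the other 2. The Cgnl1 locus summed to 4.93 RPKM in the treated and 10.1 in the untreated pool, a ratio of 0.488 (0.302 to 0.770) with an adjusted p of 0.0129, and to a ratio of 0.463 (0.264 to 0.802) with an adjusted p of 0.0619 in the mz series, both by the exact binomial test over loci.

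Tjp1 encodes ZO-1, the scaffold that ties tight junction proteins to actin, and held more regions than any other member gene. Its 8 regions all lay inside the gene, 2 of them accessible, and none had more than 1.79 RPKM in mz_NrKO or 3.52 in mz_NrHet. All 8 had a lower value in the treated than in the untreated pool, with ratios between 0.209 and 0.894, and 6 of 8 had a lower value in mz_NrKO than in mz_NrHet. No single Tjp1 region was called. Summed, they had 8.68 RPKM in the treated and 16.6 in the untreated pool, a ratio of 0.521 (0.365 to 0.737) with an adjusted p of 0.00297 by the exact binomial test over loci. The mz sums were 7.53 RPKM in mz_NrKO and 14.1 in mz_NrHet, a ratio of 0.534 (0.283 to 1.00) with an adjusted p of 0.249 by the same test.

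F11r encodes JAM-A, an adhesion molecule of tight junctions, and had a pair of accessible regions 12.5 and 13.9 kb downstream of the gene. The first had 1.79 RPKM in mz_NrKO and 5.87 in mz_NrHet, and the second 4.30 RPKM in mz_NrKO and 10.6 in mz_NrHet. In the inducible series the first had 4.93 RPKM in the treated and 5.55 in the untreated pool, and the second 3.40 and 3.92 RPKM in the same order. Both regions were thus far apart between the mz columns and close together between the pools. The locus ratio was 0.371 (0.190 to 0.701) in the mz series, with an adjusted p of 0.0258, and 0.881 (0.590 to 1.31) in the inducible series, with an adjusted p of 0.778, both by the exact binomial test over loci. The difference between the series had an unadjusted exact p of 0.0199 and an adjusted p of 0.753. The pair lies within 2 kb, so the regions may share reads.

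Jam2, which encodes JAM-B of the same family, had 3 accessible regions with a summed 21.5 RPKM in mz_NrKO and 20.0 in mz_NrHet, a ratio of 1.08 (0.696 to 1.69). The region 5.88 kb outside the gene had 3.40 RPKM in the treated and 7.18 in the untreated pool, and 5.74 RPKM in mz_NrKO and 8.22 in mz_NrHet. Both regions inside the gene had near-equal pools, at 3.74 RPKM in the treated and 3.92 in the untreated pool for one, and at 6.13 and 6.53 RPKM in the same order for the other. In mz_NrKO these 2 had 8.25 and 7.53 RPKM, against 5.29 and 6.46 RPKM in mz_NrHet.

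Occludin (Ocln) and tricellulin (Marveld2) are neighbouring genes for membrane proteins of tight junctions. The Marveld2 region had 9.33 RPKM in mz_NrKO and 17.6 in mz_NrHet, and 5.96 RPKM in the treated and 7.67 in the untreated pool. The most accessible Ocln region had 5.38 RPKM in mz_NrKO and 8.81 in mz_NrHet, and 5.79 RPKM in the treated and 5.71 in the untreated pool. Over the 5 regions of both genes the ratio was 0.622 (0.415 to 0.935) in the mz embryos and 0.953 (0.715 to 1.27) in the inducible pools. Over the 3 regions of Cldn3 and Cldn4 the ratio was 0.602 (0.425 to 0.851) in the mz embryos and 0.467 (0.338 to 0.638) in the inducible pools. Over the 6 regions of Cdh3 and Cdh1 it was 0.530 (0.322 to 0.868) in the mz embryos and 0.614 (0.429 to 0.871) in the inducible pools. The 3 gene pairs thus had mz intervals that overlap widely, and inducible intervals in which the claudin pair and the Ocln pair do not overlap, a difference between gene pairs that was not tested.

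Tjp3, which encodes ZO-3, had values above its controls in both series. Its accessible region inside the gene had 5.74 RPKM in mz_NrKO and 4.70 in mz_NrHet, and 4.42 RPKM in the treated and 2.94 in the untreated pool, with neither called. The locus ratios were 1.53 (0.644 to 4.01) and 1.39 (0.793 to 2.47). Cgn, which encodes cingulin, had a region 17.3 kb downstream of the gene with 0.717 RPKM in mz_NrKO and 2.94 in mz_NrHet, and 1.53 RPKM in the treated and 0.326 in the untreated pool. That region was the member with the highest inducible log2 ratio, 0.93, from 9 reads against 2, and its unadjusted exact p between the series was 0.00958, not passing adjustment.

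The genes of the contractile cortex had 5 regions, of which 4 lay upstream of Myh10, the gene of a non-muscle myosin heavy chain. The Myh10 region 17.6 kb upstream had 5.02 RPKM in mz_NrKO and 11.2 in mz_NrHet, and 2.21 RPKM in the treated and 5.06 in the untreated pool. The region 39.7 kb upstream had 0.717 RPKM in mz_NrKO and 2.35 in mz_NrHet, and 1.02 RPKM in the treated and 3.43 in the untreated pool. The region closest to the gene, 5.73 kb upstream, had 0.717 RPKM in mz_NrKO and 4.11 in mz_NrHet, but 3.06 RPKM in the treated and 2.12 in the untreated pool. It was the sole Myh10 region with a higher value in the treated pool, and it lies 1.24 kb from the next Myh10 region, so that these 2 may share reads in the sums.

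Summed over its 4 regions, Myh10 had 7.89 RPKM in mz_NrKO and 20.0 in mz_NrHet, a ratio of 0.395 (0.220 to 0.695) with an adjusted p of 0.0209. The treated pool had 6.81 RPKM and the untreated pool 12.9 RPKM, a ratio of 0.528 (0.352 to 0.782) with an adjusted p of 0.0115, both by the exact binomial test over loci. Myh9, the gene of another non-muscle myosin heavy chain, had a single region with 3 reads in mz_NrKO and 0 in mz_NrHet, and 0.340 RPKM in the treated and 0.653 in the untreated pool, too few for a comparison. Krt19, the sole keratin gene with a region, had 0.717 RPKM in mz_NrKO and 1.17 in mz_NrHet, and 0.681 RPKM in the treated and 1.47 in the untreated pool.

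The desmosome genes had 7 regions at 4 of their 10 genes, with ratios of 0.585 (0.416 to 0.824) in the mz embryos and 0.827 (0.642 to 1.06) in the inducible pools. Perp, which encodes a desmosomal membrane protein, had a region 0.657 kb outside the gene with 1.43 RPKM in mz_NrKO and 6.46 in mz_NrHet, and 3.91 RPKM in the treated and 5.88 in the untreated pool. Its mz locus ratio was 0.222 (0.0516 to 0.749) and was not called, with an adjusted p of 0.0812 by the exact binomial test over loci. Dsp encodes desmoplakin, which anchors keratin filaments, and its region 21.5 kb upstream had 5.02 RPKM in mz_NrKO and 8.81 in mz_NrHet, but 5.45 RPKM in the treated and 4.08 in the untreated pool. The strongest desmosome region lay inside Pkp4, which encodes a plakophilin-type armadillo protein, with 8.61 RPKM in mz_NrKO and 14.7 in mz_NrHet, and 3.40 RPKM in the treated and 4.73 in the untreated pool. The 3 Pkp4 regions all had lower values in mz_NrKO and in the treated pool than in their controls, with locus ratios of 0.611 (0.399 to 0.935) and 0.731 (0.507 to 1.05).

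The 6 regions of the gap junction genes had the ratios closest to 1 of the 7 families, at values of 0.727 (0.538 to 0.983) in the mz embryos and 0.927 (0.736 to 1.17) in the inducible pools, and the authors' deposited table classes 5 of the 6 as unchanged. Gja1 encodes connexin 43 and held 5 accessible regions. The region 16.4 kb downstream of the gene had the highest mz_NrKO value of the members, 16.1 RPKM, against 14.7 RPKM in mz_NrHet, and 8.00 RPKM in the treated against 8.32 in the untreated pool. The region inside Gja1 had 10.4 RPKM in mz_NrKO and 17.6 in mz_NrHet, and 8.85 RPKM in the treated and 9.96 in the untreated pool. Summed, Gja1 had 32.3 RPKM in mz_NrKO and 41.1 in mz_NrHet, a ratio of 0.785 (0.568 to 1.09), and 22.3 RPKM in the treated and 24.8 in the untreated pool, a ratio of 0.899 (0.706 to 1.14). With equal column sums the inducible Gja1 locus had an adjusted p of 0.283 by the exact binomial test. Gjb5, which encodes another connexin, had 3.59 RPKM in mz_NrKO and 8.22 in mz_NrHet, and 2.38 RPKM in the treated and 1.80 in the untreated pool.

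**Figure D4:**
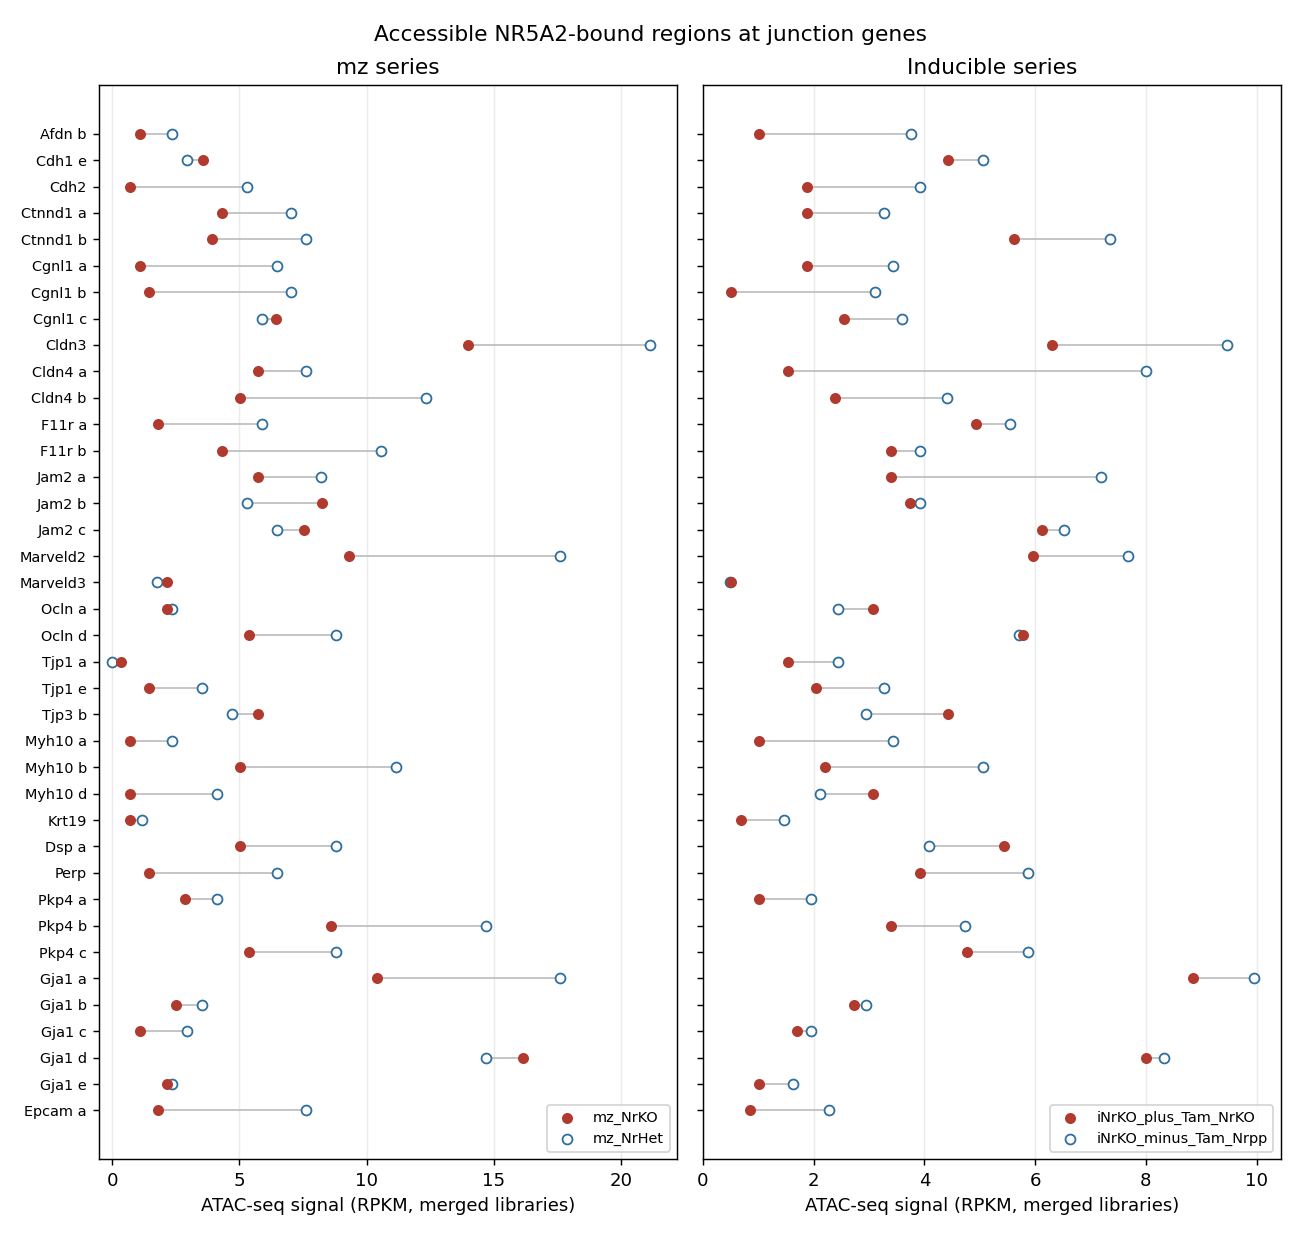
ATAC-seq signal in RPKM at the 38 accessible junction regions, mz_NrKO (filled) and mz_NrHet (open) at left, treated (filled) and untreated pool (open) at right, 1 merged value per group; regions run by family from adherens junctions to Epcam, and letters count a gene's regions along the chromosome. Cldn3, Marveld2 and Gja1 carry the highest values, and the first Cldn4 region has the widest gap between the pools, 1.53 against 8.00 RPKM.

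Epcam, which encodes an epithelial adhesion molecule outside the classical junctions, had 2 regions upstream of the gene. The accessible one, 12.9 kb away, had 1.79 RPKM in mz_NrKO and 7.64 in mz_NrHet, and 0.851 RPKM in the treated and 2.29 in the untreated pool. The other, 6.94 kb away, had 0.717 RPKM in mz_NrKO and 3.52 in mz_NrHet, and 1.19 RPKM in the treated and 0.816 in the untreated pool. Summed, Epcam had 2.51 RPKM in mz_NrKO and 11.2 in mz_NrHet, from 7 and 19 reads, a ratio of 0.225 (0.0799 to 0.559) with an adjusted p of 0.0131 by the exact binomial test over loci. The inducible ratio was 0.658 (0.291 to 1.43) and was not called.

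The authors' deposited table classes 33 of the 68 junction regions (48.5%) as lost in accessibility, 26 (38.2%) as unchanged and 9 (13.2%) as gained, where it classes 41.5% of all regions as lost, 41.6% as unchanged and 16.9% as gained. Each region has 1 such class for both series together. Among the 38 accessible members 22 (57.9%) were classed as lost, 15 as unchanged and 1 as gained, against 46.3% lost among all accessible regions. The mz ratio of the accessible members was 0.612 (0.537 to 0.698), against 0.650 for all accessible regions, and that of the 30 others was 0.552 (0.414 to 0.736), against 0.734 for all regions that are not accessible. In the inducible series the ratios were 0.731 (0.664 to 0.804) for the accessible members and 0.599 (0.491 to 0.730) for the others, against 0.692 and 0.698 for all regions of the same classes. The 8 members at 0 reads in mz_NrHet were all classed as gained, and they held 1 to 4 reads in mz_NrKO.

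The members were also split by position relative to the gene. The 33 members outside their gene had an mz ratio of 0.549 (0.471 to 0.640) and the 35 inside had 0.690 (0.570 to 0.835), where all regions outside and inside a gene had 0.673 and 0.664. The inducible ratios were 0.705 (0.627 to 0.791) outside and 0.700 (0.615 to 0.797) inside. The mz intervals overlap, and the difference was not tested. Members above the median NR5A2 signal of the 68 had an mz ratio of 0.589 and those below it 0.628, with inducible ratios of 0.731 and 0.654 in the same order.

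A wider list of 128 other genes of the same families and their actin linkers was described in the same way. It had 121 regions at 53 loci, with a ratio of 0.649 (0.587 to 0.717) in the mz embryos and 0.711 (0.662 to 0.762) in the inducible pools. Its mz median log2 ratio was −0.34, against −0.61 for the members and −0.32 for all regions. The mz_NrKO value was below mz_NrHet at 62.0% of its regions, against 73.5% of the members and 64.3% of all regions. In these 2 mz measures the list was thus nearer to the whole table than to the members. Of the 121 regions 4 were called lower and 0 higher in the mz series, and 8 lower and 1 higher in the inducible series. The lower calls are 3.31% and 6.61% of the list, against 1.73% and 6.37% of all regions. Among all regions 0.0236% and 0.0767% were called higher in the same order. At the level of loci, 5 were called lower in the mz series (Actn4, Cldn24, Fermt2, Myl12b and Tln2) and 10 in the inducible series, among them Actn1, Cdh23, Cldn9, Fat1, Magi1, Msn, Myl12b, Shroom3 and Tln2. These are 9.43% and 18.9% of the 53 loci, against 5.51% and 15.4% of all loci. Tln2, which encodes a talin that joins integrins to actin, and Myl12b, a myosin regulatory light chain gene, were called in both. Fat1, an atypical cadherin gene, had 1.19 RPKM in the treated and 8.49 in the untreated pool, a ratio of 0.140 (0.0538 to 0.310). Genes of cumulus and granulosa cells, which surround the oocyte, had 7 regions with means of 1.59 RPKM in mz_NrKO and 2.10 in mz_NrHet, and 1.29 RPKM in the treated and 1.49 in the untreated pool. None of these 7 was called by the exact binomial test, and 0 had an unadjusted p under 0.05. Their part in the junction results was not tested.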

How the data were processed

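ATAC-seq libraries of 23 samples in 4 groups were used as merged values. Per the submitters' processing notes, reads went through cutadapt, Bowtie2 and MACS2 on mm10, with no version stated. Duplicate removal, insertion shift and merging are not given in the sources used here. Per the file headers, an earlier CUT&RUN study gave the regions. The authors deposited RPKM values, 1 per group and region, and ratios of knockout over control, which equal (knockout + 0.01)/(control + 0.01).

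Each ATAC-seq RPKM column was a whole multiple of 1 step, for 100% of values within 0.0001, so reads were recovered by division. Total reads were 109296 in mz_NrKO, 99826 in mz_NrHet, 190091 in the treated and 285671 in the untreated pool. Planned tests over embryos need values per embryo and were replaced by exact binomial tests on these reads, given the steps. Ratios of sums have exact Clopper-Pearson 95% intervals, conditional on the total. Tests and intervals cover counting error only, and reads may include PCR copies. The tests were checked on simulated reads with counting error only, with changes planted at regions of at least median signal. That check does not cover spread between embryos, PCR copies or changes at weaker regions. Log2 ratios used a pseudocount of 1. The test over gene loci was added after the table was seen. Gene spans and promoter windows are RefSeq's (GRCm38.p6, the assembly of mm10), matched by symbol. No region sequence was read, since no genome was used here.

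The members and lists were chosen with earlier results of these data known. Regions were named where called, where among the 20 highest mean signals with 1 region per gene, or where among the 5 lowest or highest log2 ratios of a series with at least 10 reads. Regions described for their gene's role were chosen after their values were seen. Alternatives were scaling, pseudocount, distance limit, minimum reads, threshold and leaving out each gene. Python 3.11.15, numpy 2.4.6, pandas 2.3.3, scipy 1.17.1 and matplotlib 3.10.9 were used.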

Additional observations from a re-analysis of the deposited data

How the results depend on the processing

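The ratios of the members move with the scaling, as the whole table does. With the median log2 ratio of all regions set to 0 the ratio of the members was 0.751 in the mz series and 0.896 in the inducible series, and with equal column sums it was 0.899 (0.798 to 1.01) and 1.01 (0.929 to 1.10), the second on the other side of 1 with an interval that spans 1. As a median over regions with a pseudocount of 1 the inducible ratio was 0.797, against 0.784 for all regions. Leaving out 1 gene at a time gave 0.570 to 0.614 in the mz embryos and 0.677 to 0.726 in the inducible pools.

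In place of 0 mz regions, a 1.5-fold rule counted 35 lower and 6 higher (38.1% and 12.5% of all regions). The authors' class of loss, 1 class for both series together, counted 33, where it holds 41.5% of all regions. In place of 6 inducible regions, median scaling left 2, equal sums 1 and a threshold of 0.01 left 3. Among all regions, 1.17%, 0.46% and 2.03% were called lower in that order. Taking any member gene within 50 kb gave 10 of 128 regions, where 6.37% of all regions were called lower. The 1.5-fold rule gave 19 lower and 1 higher (32.2% and 2.81% of all regions), and the class of loss is the same 33. The 3 mz loci became 0 under median scaling, equal sums or a threshold of 0.01. Among all loci, 1.17%, 0.298% and 2.32% were called lower in that order. Of the 22 junction loci with at least 10 reads 5 were called, adding Cdh2 and Cgnl1, and the share of all loci there is not given here. The 7 inducible loci became 2, 2 and 3 under median scaling, equal sums and 0.01, where 2.81%, 1.23% and 7.42% of all loci were called lower. Loci of Cldn4 and Nectin1 held under both scalings, with adjusted p of 0.0426 and 0.0460 at equal sums by the exact binomial test.

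The mz columns limit single regions most: 36 of 68 members held at least 10 reads in both mz columns together, and 60 of 68 in the inducible ones, so a region without a call is not shown to be unchanged. Leaving out each replicate was not run, because the columns are merged. No paired analysis was possible because the columns hold 1 merged value per group and carry no replicate numbers.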
